A study of Mus musculus with 6 samples.

Results

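The genes described here encode subunits, and 5 assembly factors, of oxidative phosphorylation, the chain of protein complexes that carries out respiration in mitochondria. They were taken by symbol, as probe sets (the array's sets of short probes for a transcript) annotated with a single symbol that starts with Nduf, Uqcr or Atp5, or with Cox followed by 4 to 8, or that is Sdha to Sdhd, Cycs or Cyc1. This gave 160 probe sets for 86 genes, of 12393 genes that had a probe set with a single symbol. Each gene was represented by its probe set with the highest mean over the 6 arrays, and 40 of the 86 had 1 probe set. By complex, 39 genes belonged to complex I, 4 to complex II, 9 to complex III, 16 to complex IV and 17 to complex V, and Cycs encodes the mobile carrier cytochrome c. A further 8 probe sets carried a member's symbol together with other symbols and were not used. Of the 86 genes, 82 passed a filter on dim probe sets (a mean signal of at least 82.6). Just inside this limit lay Cox7a1, and Cox6a2 and Cox6b2 lay just outside it, together with Cox4i2 and Cox8b further below.

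The samples were lung metastases of mammary tumours driven by the MMTV-Myc transgene in FVB mice, measured on Affymetrix mouse arrays. The MMTV promoter directs the oncogene Myc mainly to mammary epithelium, and all 6 metastases carried it. Of these, 3 were labelled Myc E2F2 KO (knockout of E2f2, a cell cycle transcription factor) and 3 Myc E2F3 Het (heterozygous for E2f3, another factor of that family). Metastases were collected at endpoint, and no metastasis with both E2F genes intact was analysed here. All Het titles contain one common number and each KO title a number of its own, with no stated meaning in the labels. Since the 3 Het arrays may thus come from 1 mouse, they were averaged into 1 sample for the test, and genotype and mouse of origin cannot then be told apart. The labels do not say that samples were separate animals, so p-values measure only the spread between these samples, which may be technical.

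Complex I takes electrons from NADH and complex II from succinate, and both hand them to ubiquinone. Complex III passes them on to cytochrome c and complex IV to oxygen, and complexes I, III and IV pump protons across the inner mitochondrial membrane. Complex V, the ATP synthase, lets the protons back through its membrane part, Fo, and makes ATP in its catalytic part, F1. The subunits examined here are all encoded in the nucleus. Several complex IV subunits exist as isoforms, some used in most tissues and others mainly in muscle, lung or testis.

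All 6 arrays had a trimmed mean signal of 500.2 and medians from 137.6 to 164.8. Het replicate 1 had a 3' to 5' signal ratio for actin of 2.38, against 1.48 to 1.73 on the other arrays, a ratio that is higher when RNA is degraded or incompletely copied. For the transferrin receptor its ratio was 11.84, against 3.25 to 5.15 on the other arrays. For Gapdh it was 0.93, against 0.75 to 0.90. Markers of mammary epithelium were bright on all arrays, with summed signals of 41227 to 49000 in KO and 41284 to 47875 in Het metastases over 9 genes. Markers of other cell types of the lung were also present and differed widely among the KO arrays, as given below. No probe set carried the symbol E2f2, so the KO labels were not checked here. E2f3 had 91.6, 91.4 and 137.9 in KO and 87.2, 144.2 and 73.0 in Het metastases, with overlap. Myc had 10662, 10869.9 and 13138 in KO and 11302, 13277 and 13558 in Het metastases, also with overlap.

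No oxidative phosphorylation gene passed the test between E2F2 KO and E2F3 Het metastases. With limma on log2(signal + 16), 0 of the 82 members tested had an adjusted p under 0.05 (lowest adjusted p = 0.9999), beside 0.0% of the 13575 probe sets tested. At an unadjusted p under 0.05, limma called 0 of 82 members, beside 1.69% of all genes. With each of the 6 arrays taken as a sample, limma called 0 members after adjustment (lowest adjusted p = 0.3551). Before adjustment it then called 7 of 82 members, Atp5g2, Ndufb9, Ndufv3, Ndufaf1, Ndufs7, Ndufb7 and Uqcrc2, beside 9.61% of all genes. For a single gene, permuting 3 KO and 3 Het arrays exactly gives a p of 0.1 at the lowest. The standard error (SE) of a member's difference ran from 0.13 for Uqcrb to 0.57 for Cox7a1 on the log2 scale.

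The differences were small for most members. Of the 82 members tested, 69 lay within 0.25 of zero on the log2 scale, 3 lay above and 10 below. Their median absolute difference was 0.12, against 0.17 for other genes, which were not matched to the members in brightness. The median difference of KO minus Het was -0.08 over the 82, against -0.04 over all 7970 genes that passed the filter. The difference was below zero for 55 members (67.1%), beside 56.3% of all genes. All 3 KO arrays lay above all 3 Het arrays for 3 of 82 members (3.66%), beside 5.93% of all genes. All KO arrays lay below all Het arrays for 6 members (7.32%), beside 10.5% of all genes. These counts followed single arrays. Without KO replicate 1, 7 members lay wholly above, beside 9.69% of all genes, and without Het replicate 2, 5 did, beside 8.75%. This count was 4 without KO replicate 3, beside 16.4%, 4 without Het replicate 1, beside 11.4%, 4 without Het replicate 3, beside 8.02%, and 3 without KO replicate 2, beside 8.59%. The count wholly below was 32 without KO replicate 3, beside 21.4% of all genes. It was 11 without Het replicate 1, beside 15.4%, 10 without Het replicate 2, beside 17.6%, and 10 without Het replicate 3, beside 14.1%. Without KO replicate 1 it was 7, beside 1279 of the 7970 genes, and without KO replicate 2 it was 6, beside 14.7%. Over the 86 genes the median was -0.08 with all arrays, 0.01 when KO replicate 1 was left out and -0.14 when KO replicate 3 was. Where a gene had several probe sets, these did not always point the same way, and in 11 of 44 members with 2 or more probe sets above the filter they differed in sign.

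**Figure D1:**
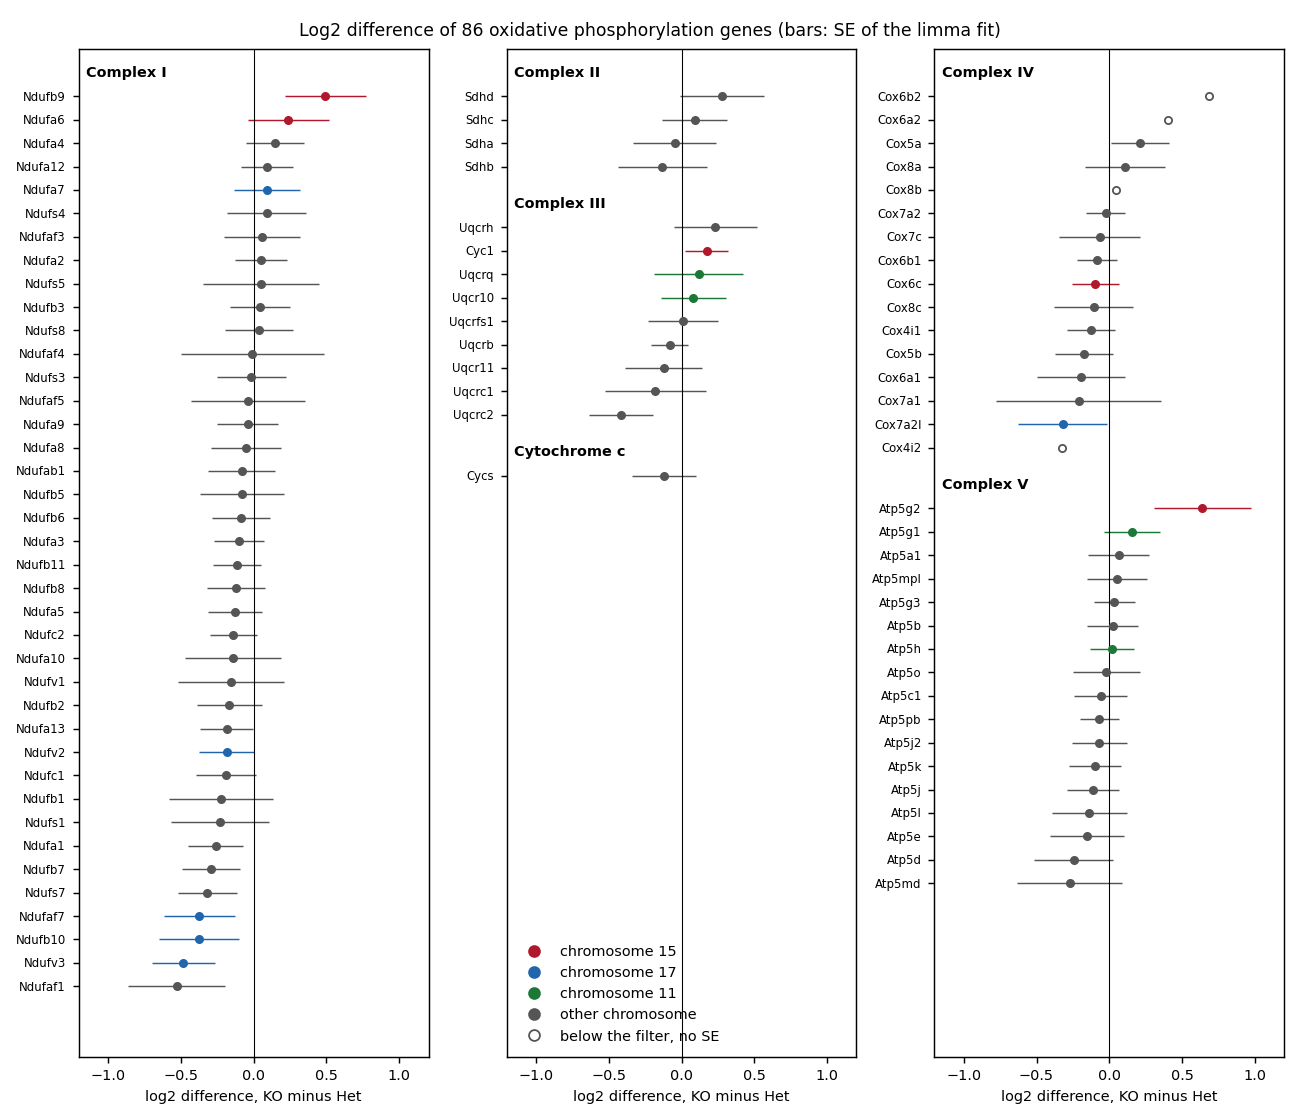
Log2 difference, KO minus Het, of each of the 86 oxidative phosphorylation genes (x axis), listed by complex; bars are the SE of the limma fit and open circles are the 4 genes below the filter, which have no SE. Most genes lie within 0.25 of zero, the genes furthest to the right of those tested are Atp5g2 and Ndufb9 on chromosome 15, and 4 of the 6 genes on chromosome 17 lie below -0.3.

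Complex I, the largest complex, had a median log2 difference of -0.10 over its 39 genes, with 28 below zero and 11 above. Its 6 measured core subunits, among them those that carry the flavin and the iron-sulphur clusters, had a median of -0.17, its 28 accessory subunits -0.09, and its 5 assembly factors -0.04. Ndufb9, an accessory subunit of the membrane arm, had signals of 7118, 6406 and 4604 in KO replicates 1, 2 and 3, against 4514, 4178 and 3983 in Het replicates 1, 2 and 3. Every KO array lay above every Het array, although KO replicate 3 came close to Het replicate 1. The log2 difference was 0.49 (SE 0.28; limma adjusted p = 0.9999), and another probe set of the gene gave 0.31. Ndufa6, an accessory subunit of the LYR protein family, had 3521, 2407 and 2518 in KO and 2183, 2638 and 2254 in Het metastases. Here the groups overlapped, and the difference of 0.24 (SE 0.28) was 0.07 without KO replicate 1. Ndufa4, which was first assigned to complex I and later found in complex IV, had a difference of 0.15 (SE 0.20), at 0.07 without Het replicate 1 and 0.23 without KO replicate 1.

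On the other side, Ndufv3, an accessory subunit of the NADH-binding module, had 1212, 1364 and 1228 in KO metastases and 1652, 1905 and 1770.1 in Het metastases. The groups were well apart, and the spread within each was narrow. Its log2 difference was -0.48 (SE 0.22; limma adjusted p = 0.9999), and its unadjusted p of 0.072 was the lowest of the 82 members. Ndufaf1, an assembly factor of complex I, had 222.4, 298.1 and 367.8 in KO and 399.6, 442.9 and 435.6 in Het metastases, again without overlap. Its difference of -0.53 (SE 0.33) was the lowest of all members, at -0.35 without KO replicate 1. Ndufs7, a core subunit with an iron-sulphur cluster, had 1987, 2118 and 2309 in KO against 2965, 2658 and 2394 in Het metastases. KO replicate 3 and Het replicate 3 nearly met. Its difference was -0.32 (SE 0.20), but another probe set of the gene gave -0.09. The groups also did not overlap for Ndufb7 (-0.29, but -0.01 by another probe set) and for the assembly factor Ndufaf7 (-0.37), which are named because the count above includes them, after their values were seen.

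Complex II, which also belongs to the tricarboxylic acid (TCA) cycle, showed no common direction between the groups. Sdha, the flavoprotein, had 2106, 2692 and 3236 in KO and 2706, 2801 and 2675 in Het metastases. The 3 Het arrays lay close together and inside the range of the KO arrays, and the difference was -0.05 (SE 0.28), or 0.11 without KO replicate 1. A dimmer probe set of Sdha gave -0.31. Sdhb, the iron-sulphur subunit, had the same layout, with 2453, 3159 and 4017 in KO and 3239, 3510 and 3605 in Het metastases. Its difference was -0.13 (SE 0.30), or 0.05 without KO replicate 1. The membrane anchors Sdhc and Sdhd had differences of 0.09 (SE 0.22) and 0.28 (SE 0.29). Sdhc was at -0.06 without Het replicate 2, and Sdhd was at 0.12 without KO replicate 3, at 0.43 without KO replicate 1 and at -0.02 by its dimmer probe set. All 4 genes had their lowest KO value in KO replicate 1 and their highest in KO replicate 3.

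Complex III had a median of 0.01 over 9 genes. Cyc1, the cytochrome c1 subunit that carries a haem, had 6105, 6205 and 6351 in KO and 5441, 5514 and 5591 in Het metastases. The groups did not overlap, the arrays of each were close together, and the difference was 0.17 (SE 0.15). Uqcrc2, a core subunit without a redox centre, had 3700.2, 3566 and 4660.2 in KO and 4771, 5572 and 5487 in Het metastases. All KO arrays were lower, KO replicate 3 by little, and the difference was -0.41 (SE 0.22), with -0.46 from another probe set. Uqcrc1, the other large core subunit, overlapped between groups (-0.18, SE 0.34; 0.01 without KO replicate 1). The hinge protein gene Uqcrh was at 0.23 (SE 0.29), and at 0.05 without KO replicate 3 and 0.09 without Het replicate 3. Uqcrq was at 0.12 (SE 0.31; -0.08 without KO replicate 3) and Uqcrb at -0.08 (SE 0.13). Cycs, for cytochrome c itself, had 8130.2, 10742 and 11353 in KO and 10995, 9947 and 11699 in Het metastases. KO replicate 1 was the lowest of the 6 arrays, and the difference of -0.12 (SE 0.22) was 0.02 without it. Dimmer probe sets of Cycs gave -0.40 and -0.14.

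In complex IV, 11 of 16 genes had a difference below zero, with a median of -0.09 over the 16 and -0.10 over the 12 above the filter. In the pairs and trios of isoforms, the widely used form was above the filter in each case. Cox4i1 had 8771, 8722 and 10445 in KO and 10093, 9939 and 10297 in Het metastases, overlapping between groups (-0.12, SE 0.16; -0.21 without KO replicate 3). Cox4i2, known as the lung isoform, had 36.6, 30.2 and 11.1 in KO and 44.2, 22.4 and 40.2 in Het metastases, below the filter and with overlap. Cox5a and Cox5b, which bind the core of the complex, were at 0.21 (SE 0.20) and -0.18 (SE 0.20). Cox5a was at 0.07 without Het replicate 2 and 0.09 without KO replicate 3, and Cox5b at -0.08 without KO replicate 1 and -0.28 without KO replicate 3. Other probe sets of Cox5b above the filter ran from -0.17 to -0.01. Cox6a1 was at -0.20 (SE 0.30; 0.02 without KO replicate 1), while its muscle counterpart Cox6a2 had 60.5 to 113.6 in KO and 46.3 to 86.9 in Het metastases. Cox6b1 was at -0.08 (SE 0.14), and its testis counterpart Cox6b2 had 198.2, 71.6 and 28.2 in KO and 53.7, 43.4 and 32.8 in Het metastases. For Cox6b2, 1 KO array was high and another was the lowest of all.

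Within the Cox7a family, the muscle form Cox7a1 had 109.0, 89.8 and 39.2 in KO and 79.5, 96.8 and 88.9 in Het metastases. Its difference was -0.21 (SE 0.57), and 0.14 without KO replicate 3, the array on which it was lowest. Cox7a2, the widely used form, was at -0.03 (SE 0.13), and at 0.02 without KO replicate 1. Cox7a2l, which takes part in joining complexes III and IV into supercomplexes, was at -0.32 (SE 0.30), and at -0.16 without KO replicate 2 and -0.50 without KO replicate 3. Cox8a was at 0.11 (SE 0.27; -0.06 without KO replicate 3) and Cox8c at -0.11 (SE 0.27). Cox8b, a muscle form, had 1.6 to 10.2 in KO and 1.7 to 13.6 in Het metastases and was the dimmest member. In this complex no gene had groups without overlap.

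Complex V had a median of -0.06 over 17 genes, and of the 5 complexes its genes lay closest to zero, with a median absolute difference of 0.07. The 5 genes of F1 had a median of -0.06. Among them, Atp5a1, for the catalytic part's alpha subunit, was at 0.06 (SE 0.21), but at -0.12 as the mean of its probe sets, -0.01 with arrays centred on their medians, and -0.05 without KO replicate 3. Atp5d, of the central stalk, was at -0.25 (SE 0.27), with the KO arrays at 4633, 4557 and 6772 and the Het arrays at 6042, 6147 and 6432. KO replicate 3 was thus the highest of the 6 arrays and the other KO arrays the lowest, and the difference was -0.43 without KO replicate 3. Atp5j, coupling factor 6 of the outer stalk, was at -0.11 (SE 0.18) and Atp5md at -0.27 (SE 0.36; -0.02 without KO replicate 1).

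The member with the largest positive difference of those tested was in complex V. Atp5g1, Atp5g2 and Atp5g3 encode precursors that yield an identical mature c subunit, the protein that forms the rotating ring of Fo. Atp5g2 had signals of 7188, 6347 and 4131 in KO and 3416, 3820 and 3827 in Het metastases. All KO arrays were higher, with KO replicate 3 close to the Het arrays and the other KO arrays well above them. The log2 difference was 0.64 (SE 0.33; limma adjusted p = 0.9999), and leaving out KO replicate 1 gave 0.47, KO replicate 3 0.87. A much dimmer probe set of Atp5g2 gave 0.26. Atp5g1 had 3667, 3649 and 4280.2 in KO and 3167, 3988 and 3287 in Het metastases, with overlap (0.15, SE 0.19). Atp5g3 had 10612, 12130 and 12066 in KO and 11596, 10685 and 11700.1 in Het metastases, also with overlap. Its difference of 0.03 (SE 0.14) was -0.0007 with quantile normalization and -0.05 with arrays centred on their medians.

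**Figure D2:**
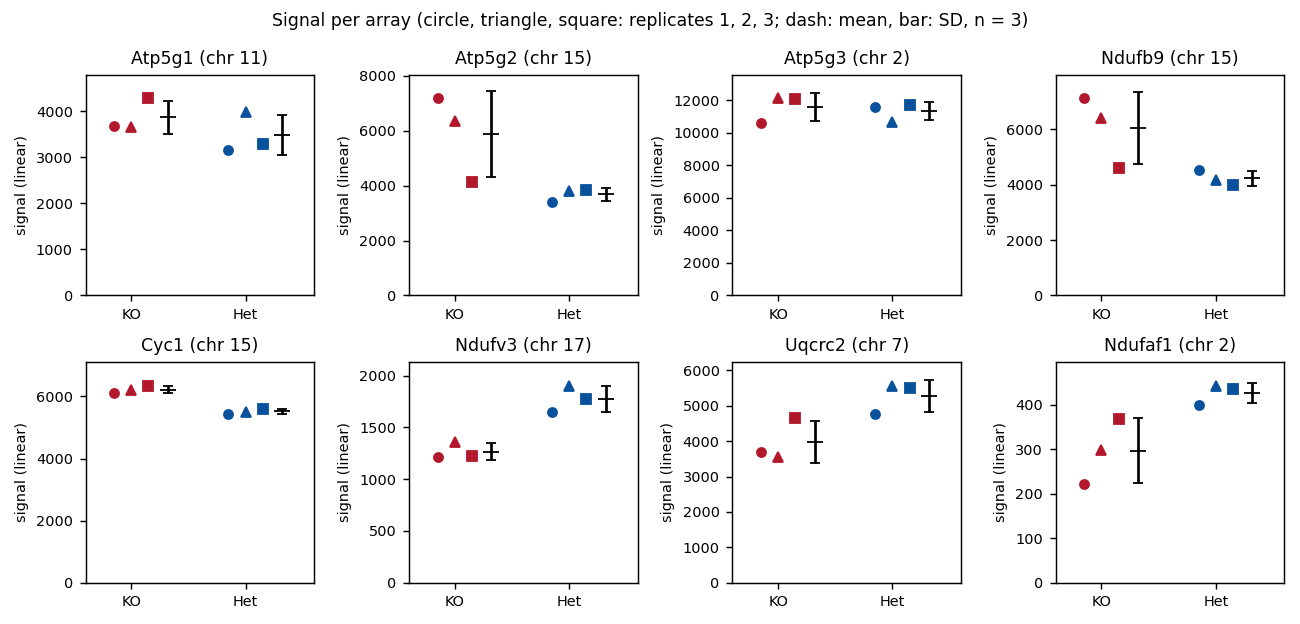
Signal on a linear scale (y axis, from 0) of 8 genes on each array, KO left of Het, with circle, triangle and square for replicates 1, 2 and 3 and the mean with SD (n = 3) beside them. Of the c subunit genes, Atp5g2 separates the groups and Atp5g1 and Atp5g3 do not; Ndufv3, Uqcrc2 and Ndufaf1 are lower on every KO array, and Ndufb9 and Cyc1 are higher.

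The c subunit genes are printed with their promoters because they make an identical protein from different loci, and Ndufv3 because it had the lowest unadjusted p. Windows of 250 bases before to 50 after the start of a gene came from RefSeq on GRCm38.p6, and 71 of the 86 genes had at least 1. Capitals mark matches, on either strand, to 6 motifs of factors known from promoters of respiratory genes or from this tumour model. These were GCGCANGCG for NRF1, CCGGAAG for ETS factors such as GABPA, AANATGGCG for YY1, CACGTG for the E-box bound by Myc, TTTNNCGC for E2F and GGGCGG for Sp1. The windows lie at chr11:96075582-96075881 (minus strand) for Atp5g1, chr15:102670998-102671297 (minus strand) for Atp5g2, chr2:73911277-73911576 (minus strand) for Atp5g3 and chr17:31519865-31520164 (plus strand) for Ndufv3.
Atp5g1: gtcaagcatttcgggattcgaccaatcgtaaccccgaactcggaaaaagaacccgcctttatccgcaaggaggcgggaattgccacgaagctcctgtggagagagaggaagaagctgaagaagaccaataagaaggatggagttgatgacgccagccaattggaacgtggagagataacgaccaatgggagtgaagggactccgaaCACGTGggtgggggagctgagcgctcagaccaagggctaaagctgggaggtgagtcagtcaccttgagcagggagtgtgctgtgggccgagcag
Atp5g2: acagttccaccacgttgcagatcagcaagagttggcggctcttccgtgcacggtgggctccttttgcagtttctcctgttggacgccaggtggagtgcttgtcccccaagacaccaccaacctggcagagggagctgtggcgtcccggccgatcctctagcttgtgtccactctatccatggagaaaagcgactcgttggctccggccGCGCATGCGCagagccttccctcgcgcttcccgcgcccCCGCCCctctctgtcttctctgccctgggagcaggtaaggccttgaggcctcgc
Atp5g3: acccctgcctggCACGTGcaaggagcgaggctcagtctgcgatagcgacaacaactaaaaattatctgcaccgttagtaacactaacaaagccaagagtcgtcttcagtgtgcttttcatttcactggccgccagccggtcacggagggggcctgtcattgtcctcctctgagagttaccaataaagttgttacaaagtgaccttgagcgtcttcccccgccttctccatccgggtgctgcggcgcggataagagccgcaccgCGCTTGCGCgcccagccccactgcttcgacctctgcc
Ndufv3: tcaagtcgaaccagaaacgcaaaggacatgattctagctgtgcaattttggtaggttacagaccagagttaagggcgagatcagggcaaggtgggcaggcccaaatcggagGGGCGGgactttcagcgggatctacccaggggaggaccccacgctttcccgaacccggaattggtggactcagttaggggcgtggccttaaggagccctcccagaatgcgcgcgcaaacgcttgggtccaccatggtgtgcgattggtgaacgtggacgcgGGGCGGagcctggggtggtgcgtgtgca
Atp5g1 held an E-box; Atp5g2 held a palindrome read as NRF1 on both strands, and an Sp1 match; Atp5g3 held an E-box and an NRF1 match; and Ndufv3 held 2 Sp1 matches. No E2F match was found in these 4 windows.

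Over all 76 windows of the members, NRF1 matches were present in 27.63%, against 6.25% of all 32851 windows and 13.96% of windows of other measured genes. ETS matches were present in 23.68%, against 8.86% and 18.33%, and YY1 matches in 11.84%, against 2.38% and 5.26%. The E2F motif was in 10.53%, against 5.17% and 8.65%. The E-box was in 9.21%, against 7.15% of all windows and 10.31% of windows of other measured genes, and the Sp1 motif in 43.42%, against 35.66% and 64.26%, so that both were less frequent than in other measured genes. These are matches of letters, not binding sites. Members with an NRF1 match (20 genes) had a median log2 difference of -0.05, and those without (49 genes) -0.10. For the E2F motif these medians were -0.15 (8 genes) and -0.08 (61 genes), and for the E-box -0.02 (6 genes) and -0.08 (63 genes). Each was within the spread of the members.

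The array medians of the members varied more among the KO than among the Het metastases. Over all 86 the SD was 0.13 in KO and 0.015 in Het metastases (n = 3 each), beside 0.047 and 0.042 for other genes. Since the 3 Het arrays may come from 1 mouse, a part of genotype and a part of mouse of origin in this contrast cannot be told apart. The log2 value of each of the 82 members above the filter was then measured from its mean over the 6 arrays. The median deviations were -0.17, -0.04 and 0.11 in KO replicates 1, 2 and 3. In Het replicates 1, 2 and 3 they were 0.06, 0.03 and 0.03. The KO arrays thus lay on both sides of the Het arrays, while other genes had medians of -0.02, -0.003 and -0.03 in KO. KO replicate 1 was the lowest of the 6 arrays for 46 of 82 members (56.1%), against 23.2% of other genes. KO replicate 3 was the highest for 36 members (43.9%), against 15.3% of other genes. A value below that of KO replicate 3 was found in KO replicate 1 for 69 of 82 members (84.2%), against 48.2% of other genes. The same ranking held in each complex, with complex medians from -0.25 to -0.15 in KO replicate 1 and from 0.05 to 0.28 in KO replicate 3. It was widest in complex II, at -0.25 and 0.28, and narrowest in complex I, at -0.19 and 0.05.

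Markers of some other cell types also differed along the KO arrays, and the sums of several lists ran opposite to the members. The summed signal of 7 measured alveolar type 2 markers was 59328, 30949 and 10093 in KO replicates 1, 2 and 3, and 27677, 16803 and 20079 in Het replicates 1, 2 and 3. Of these 7 markers, 6 were highest in KO replicate 1. For 10 endothelial markers, 9 of them highest in KO replicate 1, the sum was 4122, 3224 and 1755 in KO and 3158, 1921 and 1945 in Het metastases. The sum of 7 markers of milk-secreting epithelium ran the other way among KO arrays, in the members' order. It was 48948, 52565 and 78614 in KO, against 74068, 72880.3 and 81404 in Het metastases. Not every gene of this list did so. Among KO arrays Csn2 was highest in KO replicate 1 (17785, 12671 and 17414). Csn3 (15725, 21105 and 19409) and Lalba (431.7, 4458.5 and 1207.1) were highest in KO replicate 2. None of the alveolar type 2, endothelial and milk-secreting markers was at 0, and the surfactant gene Sftpc and the casein gene Csn2 were bright on all arrays. The 21 markers of cardiac and skeletal muscle, a tissue rich in mitochondria, of which 8 passed the filter, summed to 2653, 2576 and 864.3 in KO and 1089, 1214 and 1635 in Het metastases, with Myh6 at 291.9, 444.6 and 112.1 in KO. Alveolar type 1 markers (12336, 9188 and 2805 in KO, and 5537, 3964 and 3477 in Het metastases) and those of pericytes and smooth muscle (5531, 4293 and 2217 in KO, and 3165, 3456 and 2827 in Het metastases) had the same order among KO arrays. Red cell and platelet markers summed to 1278, 954.2 and 747.0 in KO and 884.9, 392.4 and 776.3 in Het metastases, again in this order among KO arrays. Mammary epithelium markers summed to 49000, 41487 and 41227 in KO and 41284, 47875 and 41901 in Het metastases, with KO replicate 1 highest. The airway and macrophage lists did not follow this order, and of the lymphocyte and adipocyte lists 0 and 1 genes passed the filter. The 5 airway markers summed to 25760.4, 6354 and 13511 in KO and 22146, 17974 and 18081 in Het metastases, and the 9 macrophage markers to 6893, 10377 and 6349 in KO and 9627, 9231 and 10489.8 in Het metastases. Of 8 fibroblast markers, 7 were higher in KO, beside 5885 of all 12393 genes, and Pdgfra was lower (-0.30). Their sum was 7981, 7288 and 5327 in KO and 4558, 4562.5 and 4539.9 in Het metastases. Every KO sum lay above every Het sum, but the difference in sums was not tested. The part of these cells in the members' values was not tested, and in such bulk samples fewer cells of a type and less RNA per cell cannot be told apart.

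**Figure D3:**
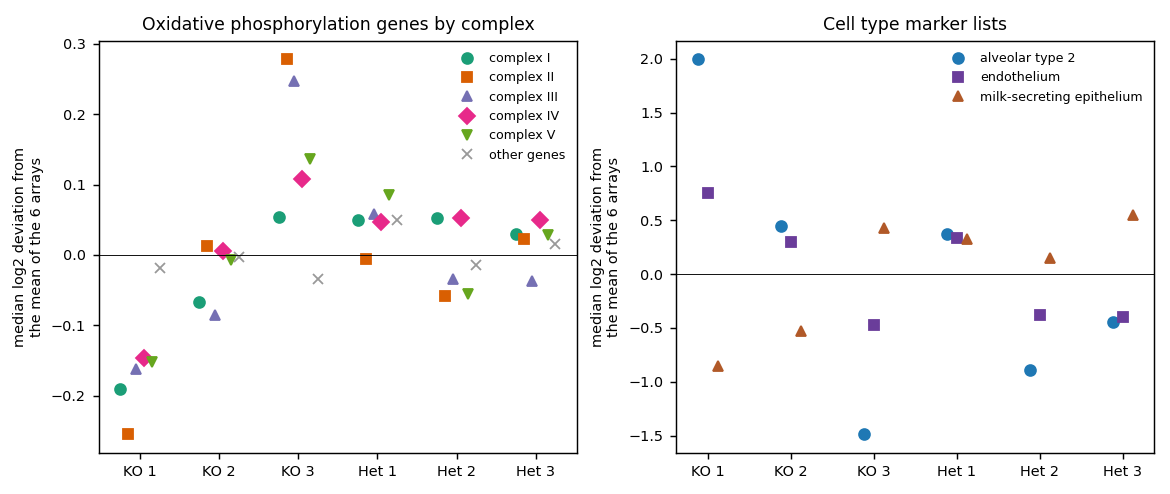
Median log2 deviation from the mean of the 6 arrays (y axis) on each array (x axis), for the members of each complex and for other genes (left) and for 3 lists of cell type markers (right). The complexes are low in KO replicate 1 and high in KO replicate 3, alveolar and endothelial markers are high in KO replicate 1 and low in KO replicate 3, and Het arrays lie between for the complexes.

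Several of the members furthest apart between the groups shared a chromosome. This grouping by chromosome was made after the values were seen, with chromosomes from RefSeq on GRCm38.p6. All 3 members with every KO array above every Het array, Atp5g2, Ndufb9 and Cyc1, lie on chromosome 15. Of the other genes on chromosome 15, 13.56% also lay wholly above and 2.52% wholly below. That chromosome holds 5 of the 82 members, with a median log2 difference of 0.24, and the others on it are Ndufa6 (0.24) and the complex IV subunit Cox6c (-0.10). Chromosome 17 holds 6 members, with a median of -0.35. Besides Ndufv3 and Cox7a2l these are Ndufb10 (-0.37), Ndufaf7 (-0.37), the core subunit Ndufv2 (-0.19) and Ndufa7 (0.09). Other probe sets gave -0.60 and -0.38 for Ndufv2, and those of Ndufa7 were all below zero, from -0.20 to -0.03. The 4 members on chromosome 11, Atp5g1, Atp5h, Uqcr10 and Uqcrq, had a median of 0.10. Among the 67 members on other chromosomes, 0 lay wholly above in KO (0.0%), beside 5.27% of the 6533 genes there, and 4 wholly below (5.97%), beside 11.4%, and their median was -0.08. The count of 0 was fixed by leaving out chromosome 15.

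Other genes of these chromosomes were displaced in the same directions. The 317 other genes measured on chromosome 15 had a median difference of 0.21, with per-array medians of 0.35, 0.18 and -0.26 in KO and -0.06, -0.11 and -0.13 in Het metastases. On this chromosome KO replicates 1 and 2 were high and KO replicate 3 was low. The 396 other genes of chromosome 17 had a median of -0.15, and here a single array stood out, Het replicate 2 at 0.29. Of these genes, 3.03% lay wholly above in KO and 14.65% wholly below. Chromosome 11 had 0.05 over 698 genes, with KO replicate 1 at 0.19. The medians of the other 17 chromosomes lay between -0.08 and -0.03. Copy number was not measured here, and the part of it or of any other cause was not tested.

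Along chromosome 15, the genes before and after Ndufb9 had different medians. This division was chosen after the values were seen. The 80 other genes before it had a median difference of -0.05, and the 237 after it 0.25. Before it, the per-array medians were 0.20, 0.12 and -0.37 in KO and 0.06, -0.02 and 0.04 in Het metastases. After it, they were 0.41, 0.21 and -0.23 in KO and -0.08, -0.13 and -0.17 in Het metastases. KO replicates 1 and 2 were thus high and KO replicate 3 low in both stretches, and the positive differences began some genes before Ndufb9. Cox6c, which lies in the first stretch, had 7829, 7849 and 6749 in KO and 8036, 8088 and 7791 in Het metastases, with overlap, whereas Ndufb9, Cyc1, Ndufa6 and Atp5g2 all had positive differences. Another probe set of Cox6c gave -0.39. On chromosome 17, Ndufb10, an accessory subunit of complex I, had 1661, 1491 and 2158 in KO and 2107, 2817 and 1971 in Het metastases. Ndufaf7 had 354.9, 343.9 and 298.1 in KO and 391.1, 524.7 and 396.5 in Het metastases. Both were highest in Het replicate 2. Without Het replicate 2, Ndufv3 was at -0.43 and Cox7a2l at -0.24.

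**Figure D4:**
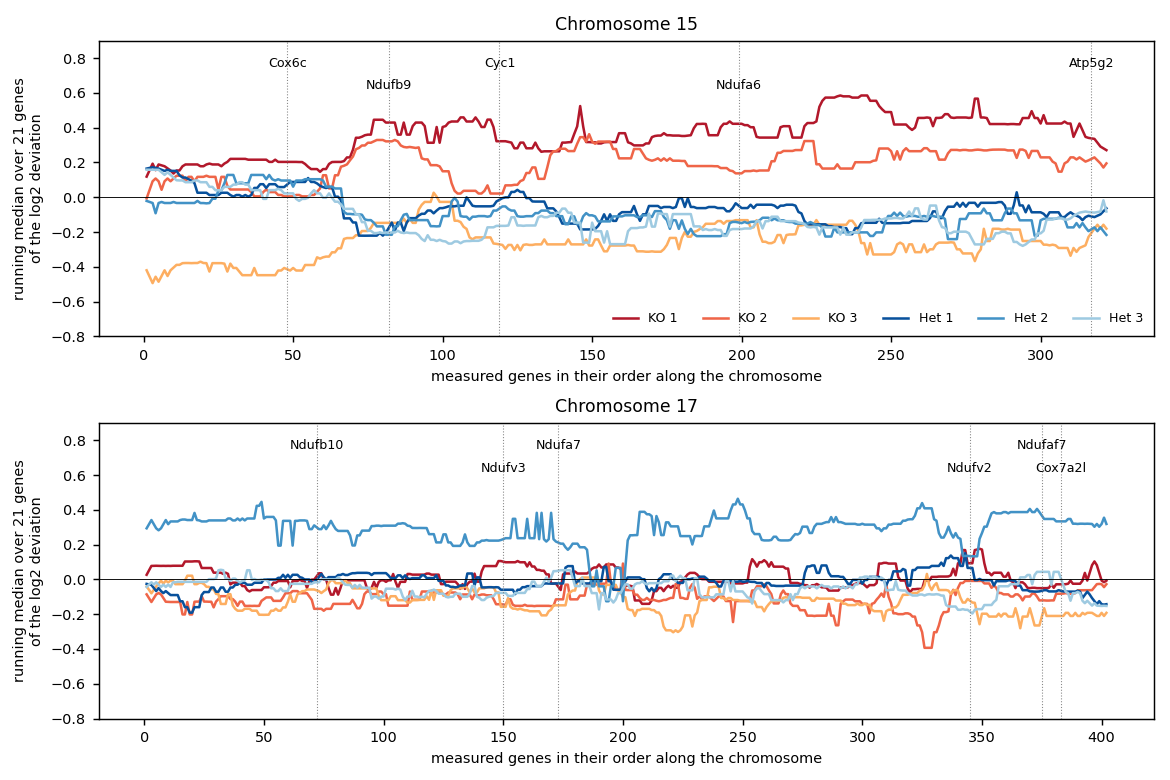
Running median over 21 genes of the log2 deviation from the mean of the 6 arrays (y axis) against gene order along chromosomes 15 and 17 (x axis), with members marked by dotted lines and left out of the median. On chromosome 15, KO replicate 1 lies above the Het arrays over nearly the whole length, KO replicate 2 lies above them from shortly before Ndufb9, where the Het arrays turn lower, and KO replicate 3 is the lowest over most of it; on chromosome 17 Het replicate 2 lies above the other arrays over most of its length.

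Each member was then set against the median of its 20 nearest other genes. Across the 82 members, Pearson's r between the log2 difference of a member and that of its neighbours was 0.65, against 0.17 across 7875 other genes. The other genes were not matched to the members in brightness, and their differences had an SD of 0.36, against 0.19 for the members. These r values are therefore not directly comparable. All points share the same 6 arrays, neighbouring members share neighbours, and genes are not independent replicates. For the 67 members off chromosomes 11, 15 and 17, r was 0.34. Subtracting the neighbours' median on each array, an alternative chosen after seeing the data, brought Ndufb9 to 0.08 and Ndufa6 to -0.03. Cyc1 then stood at 0.06 and Atp5g2 at 0.42. Ndufv3 stood at -0.37, Ndufaf1 at -0.38 and Uqcrc2 at -0.40, so each lay below its neighbours. The SD of the members' differences was 0.19 as measured and 0.14 after the subtraction.

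**Figure D5:**
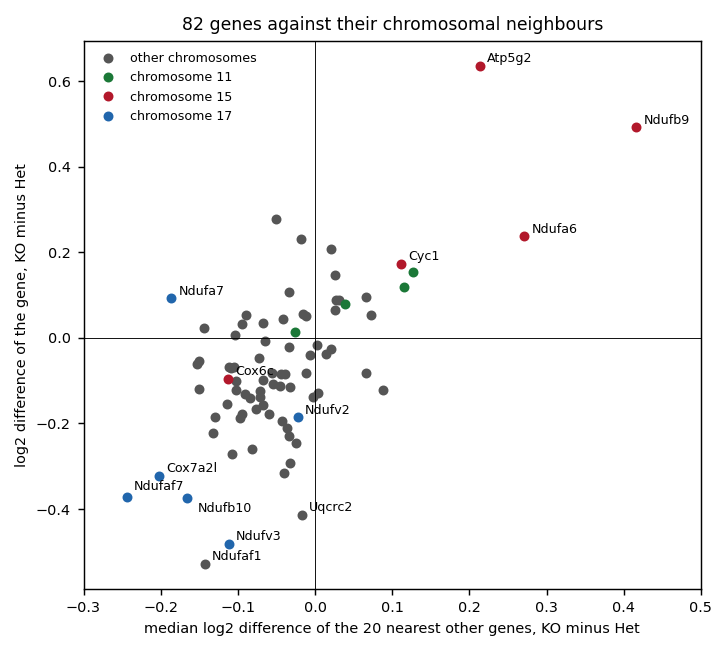
Log2 difference, KO minus Het, of each of 82 members (y axis) against the median difference of its 20 nearest other genes on the chromosome (x axis), coloured for chromosomes 11, 15 and 17. Ndufb9 and Ndufa6 lie where their neighbours do, Atp5g2 lies further up, and Ndufv3, Ndufaf1 and Uqcrc2 lie below their neighbours.

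Other genes of mitochondrial metabolism also gave no calls. In each of 8 lists the number with a limma adjusted p under 0.05 was 0, in either direction. Of 15 genes of the TCA cycle and pyruvate dehydrogenase, 14 had differences below zero, with a median of -0.10. Idh3b, a subunit of isocitrate dehydrogenase, had 2371, 2625 and 3941 in KO and 3613, 3962 and 3817 in Het metastases, so that the groups overlapped through KO replicate 3 (-0.38, SE 0.32). Mdh2, the mitochondrial malate dehydrogenase, was at -0.26 (SE 0.25). The TCA cycle list had per-array medians of -0.25, -0.22 and 0.25 in KO, with KO replicate 3 again the highest. The 74 mitochondrial ribosomal protein genes had a median of -0.07, with 53 below zero, and array medians of -0.16, -0.05 and 0.12 in KO, close to those of the members. Among them, Mrps23, on chromosome 11, was at 0.42 (SE 0.22) and Mrpl44 at -0.30 (SE 0.22).

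Of 13 regulators of mitochondrial biogenesis above the filter, 10 had differences below zero, with a median of -0.15. Esrra, a nuclear receptor that acts on respiratory genes, had 375.6, 325.9 and 512.8 in KO and 691.2, 595.7 and 630.1 in Het metastases. All KO arrays were lower (-0.66, SE 0.32; limma adjusted p = 0.9999). Tfb1m, on chromosome 17, was at -0.37 (SE 0.31). The 26 assembly factors not covered by the symbols above had a median of -0.05. Among them, the copper chaperone Sco2, on chromosome 15, had 490.7, 337.3 and 392.9 in KO and 275.5, 247.0 and 248.5 in Het metastases (0.62, SE 0.29). Bcs1l, which acts in complex III assembly, was at -0.46 (SE 0.26), also without overlap.

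Carriers, porins and uncoupling proteins had differences below zero in 7 of 7 genes above the filter, with a median of -0.08. Ucp3, an uncoupling protein known from muscle, had 50.7, 46.2 and 67.7 in KO and 120.8, 113.0 and 148.9 in Het metastases (-1.02, SE 0.41). Every KO signal of Ucp3 lay below the filter limit of 82.6, and the gene passed by its mean over the 6 arrays. Without detection calls these KO signals cannot be told from background, so the size of the Ucp3 difference is uncertain. The porin Vdac1 was at -0.09. The 17 genes of fatty acid beta-oxidation had a median of -0.04, with Cpt2 at -0.57 (SE 0.30) and Echs1 at 0.39 (SE 0.27). The 7 antioxidant genes also had a median of -0.04, with Txn2, on chromosome 15, at 0.31 (SE 0.23) and Sod2, on chromosome 17, at -0.32 (SE 0.24). For 14 glycolysis genes the median was -0.03, with the glucose transporter Slc2a1 at -0.52 (SE 0.36) and Pkm at -0.21 (SE 0.19). Over all genes the median difference was -0.04. The array medians in KO replicates 1, 2 and 3 were -0.13, -0.06 and 0.13 for the glycolysis list, in the same order as for the members. For fatty acid beta-oxidation they were 0.02, -0.04 and -0.03, in another order.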

How the data were processed

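Gene expression in 6 lung metastases (3 E2F2 KO, 3 E2F3 Het) was read from the deposited value table of 22690 probe sets. Its values are intensities on a linear scale, scaled by the authors to a common trimmed mean of 500.2 per array. MAS5 and Affymetrix Expression Console are named in the submitters' processing notes, with versions not given in the sources used here. Without detection calls, which were not used here, a dim signal cannot be told from background. Precision is limited by the number of arrays.

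The members, lists and motifs were chosen with earlier results of these data known. Signals were transformed to log2(signal + 16), so differences understate those of dim genes. The 64 control probe sets and the dimmest 40% by mean signal were dropped, and the remaining 13575 were tested together with limma 3.58.1 in R 4.3.3 (lmFit, eBayes with a trend), and an adjusted p (Benjamini-Hochberg) under 0.05 was a call. The fit set 3 KO samples against the mean of the 3 Het arrays as 1 sample, which was assumed to vary like a KO sample. Het replicates 1, 2 and 3 carry LM2, LM1 and LM3 in their titles.

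Genes were named by a rule. Per complex it took up to 3 members in each direction with the largest moderated t, the brightest and the dimmest member, all of complex II, Cycs, Cyc1 and the isoform families, and up to 2 genes of each other list. Members named for their chromosome or for a count were chosen after their values were seen. Symbols came from the platform annotation, and 12367 of 12393 genes were matched to RefSeq on GRCm38.p6 for their chromosome. Signals of different probe sets were not compared with each other. Alternatives covered the pseudocount, scaling, probe set choice, filter, unit of replication and left-out arrays.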

Additional observations from a re-analysis of the deposited data

How the results depend on the processing

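Under every fit tried, limma called 0 of the members after adjustment: pseudocounts of 1 and 64, quantile normalization, centring on array medians, other probe set choices, no filter or 60% of probe sets left out, each array as a sample, and each array left out. Over all 13575 probe sets, the number with an unadjusted p under 0.05 was 305, with 0 after adjustment; it was 1395 with each array as a sample, 959 without KO replicate 3 and 157 without KO replicate 2. When single arrays were left out, 3 to 7 members lay wholly above in KO, beside 8.02% to 16.4% of all genes, and 6 to 32 wholly below, beside 14.1% to 21.4%. Without probe sets ending in _x_at, _s_at or _a_at, 3 of 61 members lay wholly below, against 6 of 82, with fewer genes tested, beside 9.59% of all genes. With chromosomes 11, 15 and 17 left out, 0 lay wholly above, beside 5.27% of the genes on other chromosomes. That count was fixed by the choice of chromosomes, made after the values were seen. The median over the members, -0.08 as reported, was -0.16 with centring (complex I -0.18, against -0.10 as reported), -0.05 without those probe sets, -0.03 after subtraction of neighbours, and -0.14 to 0.01 when arrays were left out, and medians of complexes II, III and V also took both signs.

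Of 34 named members tested, 21 kept their sign under all alternatives run and 13 did not. Quantile normalization gave -0.0007 for Atp5g3; centring gave -0.0148 for Atp5a1 and -0.0459 for Atp5g3; the mean of probe sets gave -0.12 for Atp5a1; and subtraction of neighbours gave -0.0334 for Ndufa6 and 0.0245 for Sdha. When single arrays were left out, the differences ran from -0.0083 to 0.096 for Atp5g3, -0.0546 to 0.17 for Atp5a1, -0.33 to 0.0233 for Cox6a1, -0.0542 to 0.0201 for Cox7a2, -0.22 to 0.0246 for Cycs, -0.19 to 0.11 for Sdha, -0.31 to 0.047 for Sdhb, -0.41 to 0.0107 for Uqcrc1, -0.45 to 0.14 for Cox7a1, -0.0582 to 0.23 for Cox8a, -0.0807 to 0.23 for Uqcrq and -0.0612 to 0.19 for Sdhc. The cause was not tested. No paired analysis was possible because the labels give the groups no shared replicate numbers.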
